A study of Rattus norvegicus and Mus musculus with 12 samples.

Results

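The receptor chains for IL-4 and IL-13 were followed in cultured chondrocytes through 3 receptor genes and 1 transcription factor gene. These were Il4ra (listed as Il4r in the rat), Il13ra1, Il13ra2 and Stat6. They were taken by gene symbol, and each symbol gave 1 row, so the genes made up 4 of 19687 rows of the rat table and 4 of 28603 rows of the mouse table. The cells came from articular cartilage of newborn animals and were used at the first passage. The RC and MC groups were untreated rat and mouse chondrocytes, and the RM and MM groups had received 20 ng/ml IL-1β for 24 h as an inflammatory model of osteoarthritis. Each of the 4 groups had 3 libraries of total RNA, made from samples that the study describes as independent. Whether these were separate animals or pools of animals is not stated, so the p-values measure the spread between these samples. Each mouse library held RNA from females and males, as described below, so the mouse samples were mixed from several animals. All rat libraries carried the strain label SD. The mouse strain label was C57BL/6 for MC1, C57BL/7 for MC2 and MM1, C57BL/8 for MC3 and MM2, and C57BL/9 for MM3, whereas the methods name C57BL/6 mice. Library totals ran from 20169272 to 25903459 counts in the rat and from 16841580 to 20048322 counts in the mouse.

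IL-4 and IL-13 are related cytokines made mainly by T helper cells, mast cells, basophils and innate lymphoid cells, and they are generally regarded as restraining the catabolic response of cartilage to IL-1. IL-4 binds the chain encoded by Il4ra, which pairs either with the common gamma chain (Il2rg) as the type I receptor or with the Il13ra1 chain as the type II receptor, and the type II receptor also binds IL-13. JAK1, JAK2, JAK3 and TYK2 bound to these chains phosphorylate STAT6, which then enters the nucleus. The chain encoded by Il13ra2 binds IL-13 very tightly but has a short cytoplasmic tail and is best known as a decoy. The comparison of model with control asked in each species which of these chains changed with IL-1β, and the comparison of the species asked whether the changes were of the same size.

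In the mouse, Il4ra, Il13ra1, Stat6 and Il13ra2 were upregulated in the MM group, most of all Il13ra2, which went from a handful of counts to the highest FPKM of the 4. In the rat, Il13ra2 and Il4r were upregulated in the RM group, while Il13ra1 and Stat6 did not pass the test. Mouse Il13ra2 could be tested only through its counts in the MM group, so it had to differ and is left out of the mouse count. The other 3 mouse genes and 2 of 4 rat genes compare with 5521 of 14774 mouse genes tested (37.4%) and 2429 of 13303 rat genes tested (18.3%) that were higher in the model group at an adjusted p under 0.05. Another 5564 mouse genes (37.7%) and 2238 rat genes (16.8%) were lower, and the 4 genes were not among them. Replicates were closer to each other in the mouse than in the rat, with a coefficient of variation between replicates of 0.0318 against 0.106 in edgeR. The p-values and the shares called in each species also depend on that spread. All 4 genes passed the filter on low counts in both species, mouse Il13ra2 only through its MM counts. Rises and falls are given relative to the bulk of genes in a library. In bulk RNA, fewer cells that make a transcript and less of it per cell cannot be told apart.

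**Figure D1:**
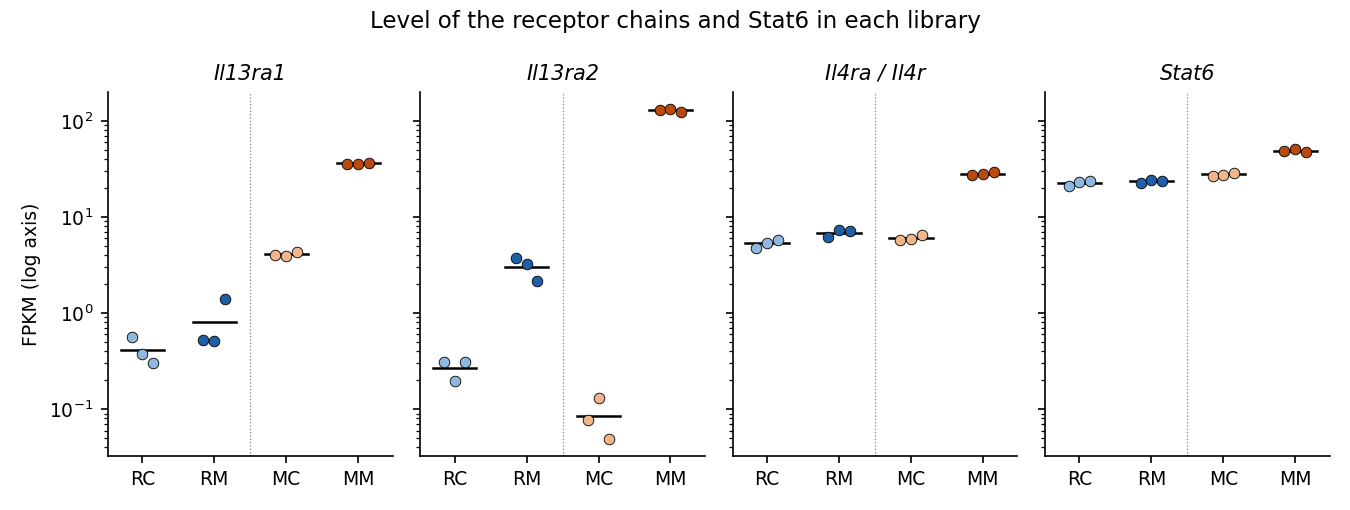
FPKM (log axis) of Il13ra1, Il13ra2, Il4ra or Il4r, and Stat6 in each library, with 1 point per library and a line at the group mean. For Il13ra2 the MM libraries lie at 123 to 134 and the MC libraries at 0.0488 to 0.13, while the RC libraries lie at 0.197 to 0.306 and the RM libraries at 2.16 to 3.73, in tables normalized separately for each species.

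The ligands were scarce or absent in the RNA. Il4 had 0 counts in all 6 rat libraries. In the mouse it had 19, 17 and 16 counts in MC1, MC2 and MC3 and 18, 21 and 22 counts in MM1, MM2 and MM3, and the groups overlapped. The log2 fold change of mouse Il4 was 0.37 (SE 0.33, edgeR adjusted p = 0.305), or 0.094 with library size alone. Il13 had 0 counts in every mouse library and no row of that symbol in the rat table. A count of 0 still allows up to 3 counts, which is 0.116 to 0.149 CPM (counts scaled to library size) in the rat libraries and 0.15 to 0.178 in the mouse libraries, for counting error only.

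Il4ra encodes the chain that binds IL-4 and is shared by both receptor types. Mouse Il4ra stood at 5.81, 5.82 and 6.42 FPKM in MC1, MC2 and MC3 and at 27.0, 28.1 and 29.0 FPKM in MM1, MM2 and MM3. The MM libraries were all above the MC libraries and close to each other. Its log2 fold change was 2.50 (SE 0.05, 95% confidence interval 2.40 to 2.59, edgeR adjusted p = 3.63e-51). Rat Il4r stood at 4.77, 5.38 and 5.75 FPKM in RC1, RC2 and RC3 and at 6.24, 7.29 and 7.07 FPKM in RM1, RM2 and RM3. These groups did not overlap either, but RC3 and RM1 lay near each other. The log2 fold change of rat Il4r was 0.36 (SE 0.10, 95% confidence interval 0.14 to 0.58, edgeR adjusted p = 0.0188). The call for rat Il4r was lost without RM2 (0.31, adjusted p = 0.088) and without RM3 (0.34, adjusted p = 0.0639), and the adjusted p ran from 0.0151 to 0.088 over the 12 alternatives.

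Il13ra1 encodes the low-affinity IL-13 chain that completes the type II receptor. In the mouse it was at 4.01, 3.95 and 4.35 FPKM in MC1, MC2 and MC3 and at 35.9, 35.7 and 36.7 FPKM in MM1, MM2 and MM3. The mouse groups were far apart compared with their spread. The log2 fold change was 3.41 (SE 0.06, 95% confidence interval 3.29 to 3.53, edgeR adjusted p = 5.23e-55), at rank 371 among 14774 genes by size of rise. In the rat the gene was weakly expressed, with 51, 32 and 23 counts in RC1, RC2 and RC3 and 39, 48 and 123 counts in RM1, RM2 and RM3. In FPKM these were 0.562, 0.378 and 0.299 for the RC group and 0.53, 0.508 and 1.41 for the RM group. RM3 stood apart from the other RM libraries, RC1 lay above RM1 and RM2, and the groups overlapped. The rat log2 fold change was 0.96 (SE 0.41, 95% confidence interval 0.04 to 1.87) and missed the threshold (edgeR adjusted p = 0.0962). Without RM3 it was 0.31 (adjusted p = 0.51), and without RC1 it was 1.23 (adjusted p = 0.0239). DESeq2 (adjusted p = 0.0462) and edgeR with no filter on low counts (adjusted p = 0.0494) also placed it under the threshold, with a range of 0.0239 to 0.51 over the 12 alternatives. Il13ra1 in the rat therefore rests on which libraries and settings are used.

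Il13ra2 encodes the high-affinity IL-13 chain. In the mouse it had 3, 5 and 2 counts in MC1, MC2 and MC3 and 5836, 5970 and 4894 counts in MM1, MM2 and MM3. In FPKM these were 0.0768, 0.13 and 0.0488 in the MC group and 128, 134 and 123 in the MM group. The gene was near the detection limit in every untreated mouse library and among the abundant transcripts in every treated one. Summed over the groups, 10 and 16700 counts gave a CPM ratio of 1520, with an exact 95% interval from 826 to 3170 for counting error only. The log2 fold change of mouse Il13ra2 was 10.79 (SE 0.44, 95% confidence interval 9.92 to 11.66, edgeR adjusted p = 2.31e-68), or 10.80 with no filter on low counts, where it also passed. With the filter it was tested only through its MM counts, so that p-value is no separate support.

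Rat Il13ra2 had 20, 12 and 17 counts in RC1, RC2 and RC3 and 198, 219 and 136 counts in RM1, RM2 and RM3. Its FPKM was 0.306, 0.197 and 0.306 in the RC group against 3.73, 3.22 and 2.16 in the RM group. The groups did not overlap, and RM3, the highest RM library for Il13ra1, was the lowest for Il13ra2. The log2 fold change of rat Il13ra2 was 3.47 (SE 0.29, 95% confidence interval 2.83 to 4.10, edgeR adjusted p = 6.78e-06), at rank 52 among 13303 genes. With limma it was 1.65 at a pseudocount of 1 and 3.07 at 0.1, and passed. Summed counts of 49 and 553 gave a CPM ratio of 11.2, with an exact 95% interval from 8.32 to 15.3 for counting error only.

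Stat6 encodes the transcription factor activated by both receptor types. In the mouse it was at 26.6, 27.6 and 28.9 FPKM in MC1, MC2 and MC3 and at 48.0, 51.1 and 47.8 FPKM in MM1, MM2 and MM3. All MM libraries were above all MC libraries. Its log2 fold change was 1.10 (SE 0.04, edgeR adjusted p = 1.74e-36). In the rat it was at 21.0, 23.1 and 23.8 FPKM in RC1, RC2 and RC3 and at 22.6, 24.3 and 23.9 FPKM in RM1, RM2 and RM3. The rat groups overlapped. The rat log2 fold change of 0.046 (SE 0.08, edgeR adjusted p = 0.672) had a 95% confidence interval from -0.12 to 0.22.

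By the criteria for a differentially expressed gene (DEG) given in the methods, mouse Il4ra, Il13ra1 and Stat6 were upregulated, and so was Il13ra2, as were 12.6% of the mouse genes tested, while 13.0% were downregulated. Mouse Stat6 fell short of the size required with library size alone (0.82) and with limma at a pseudocount of 1 (0.80) or 0.1 (0.82). Those criteria are a p under 0.05, read here as unadjusted, a change above 0.85, read here as log2, and an FPKM of 1 or more in at least 1 library. In the rat, Il13ra2 and Il13ra1 met them (2 of 4), beside 4.64% of genes upregulated and 3.9% downregulated. Rat Il13ra1 fell short of the size required with a replicate block (0.84), without RC3 (0.78) or RM3 (0.31) and with limma at a pseudocount of 1 (0.33) or 0.1 (0.73). Rat Il13ra1 met them through its unadjusted value (edgeR unadjusted p = 0.0416) and through RM3, the only rat library in which it exceeded 1 FPKM. Rat Il4r passed on the adjusted p but not on the size of its change.

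**Figure D2:**
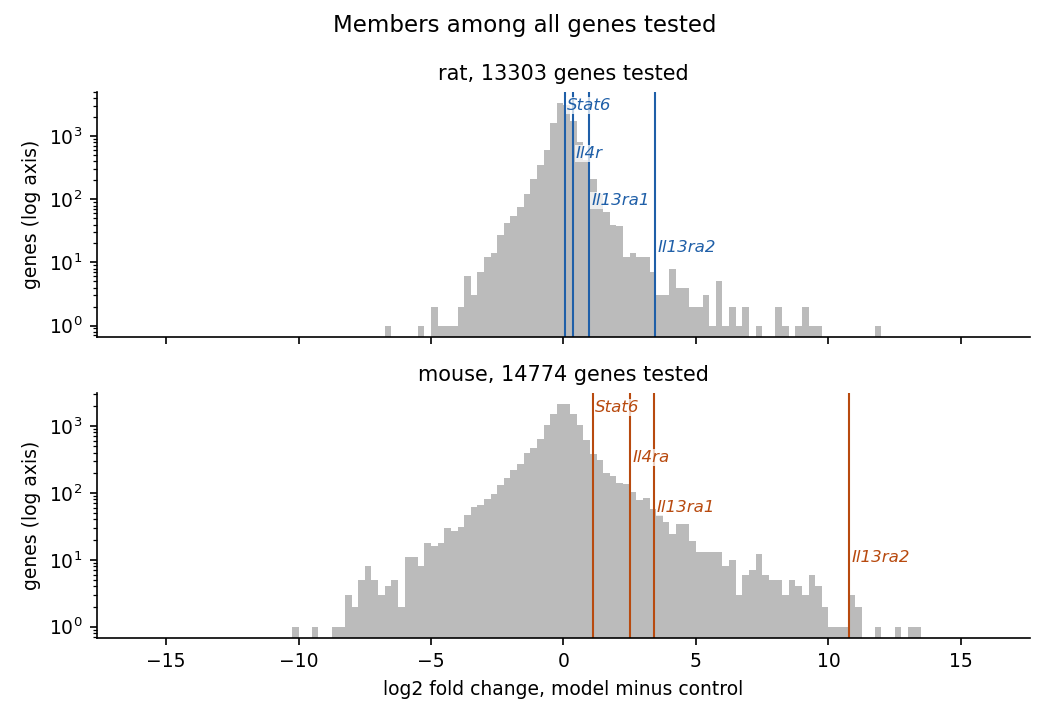
Number of genes tested (log axis) by log2 fold change, model minus control, in the rat (top) and the mouse (bottom), with a line at each of the 4 genes. Mouse Il13ra2 at 10.79 lies in the far right tail, and rat Stat6 at 0.046 lies in the centre, where the median of all genes was 0.0052 in the rat and -0.016 in the mouse.

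The difference between the species was tested directly, as the mouse change minus the rat change in 1 fit over 12 libraries and 10913 genes tested in both. That fit gave each gene 1 estimate of spread for both species, although replicates varied more in the rat. The SE of a difference can then fall below that of the rat change alone, as for Il13ra1 (0.38 against 0.41). Such p-values may be too small. Of the 10913 genes tested, 3430 (31.4%) had a signed difference called above 0 and 3530 (32.3%) below 0. The difference was called above 0 for Il13ra1, Il4ra and Stat6 and for Il13ra2. For these 4 genes, none of which fell, it means a larger rise in the mouse, but elsewhere it can also mean a smaller fall, as for Socs2. Mouse Il13ra2 was tested only through its MM counts, so its p-value here is no separate support. For Il13ra2 the difference in log2 fold change was 7.34 (SE 0.64, 95% confidence interval 5.98 to 8.70, edgeR adjusted p = 3.84e-09), or 7.34 with no filter on low counts, where it also passed. For Il13ra1 it was 2.46 (SE 0.38, 95% confidence interval 1.66 to 3.26, adjusted p = 4.25e-05). For Il4ra against Il4r it was 2.13 (SE 0.11, adjusted p = 3.43e-11) and for Stat6 1.05 (SE 0.08, adjusted p = 8.1e-09). Every 1 of these differences kept its direction and its call in the 18 alternatives, which also fitted both species together. Scaling by library size alone moved the centre of the mouse log2 fold changes, their median, from -0.016 to -0.295. It also moved the share of higher genes among those called from 49.8% to 31.4% in the mouse and from 49.3% to 28.9% in the comparison of species. Under that scaling the mouse changes were 10.52 for Il13ra2, 3.13 for Il13ra1, 2.22 for Il4ra and 0.82 for Stat6.

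**Figure D3:**
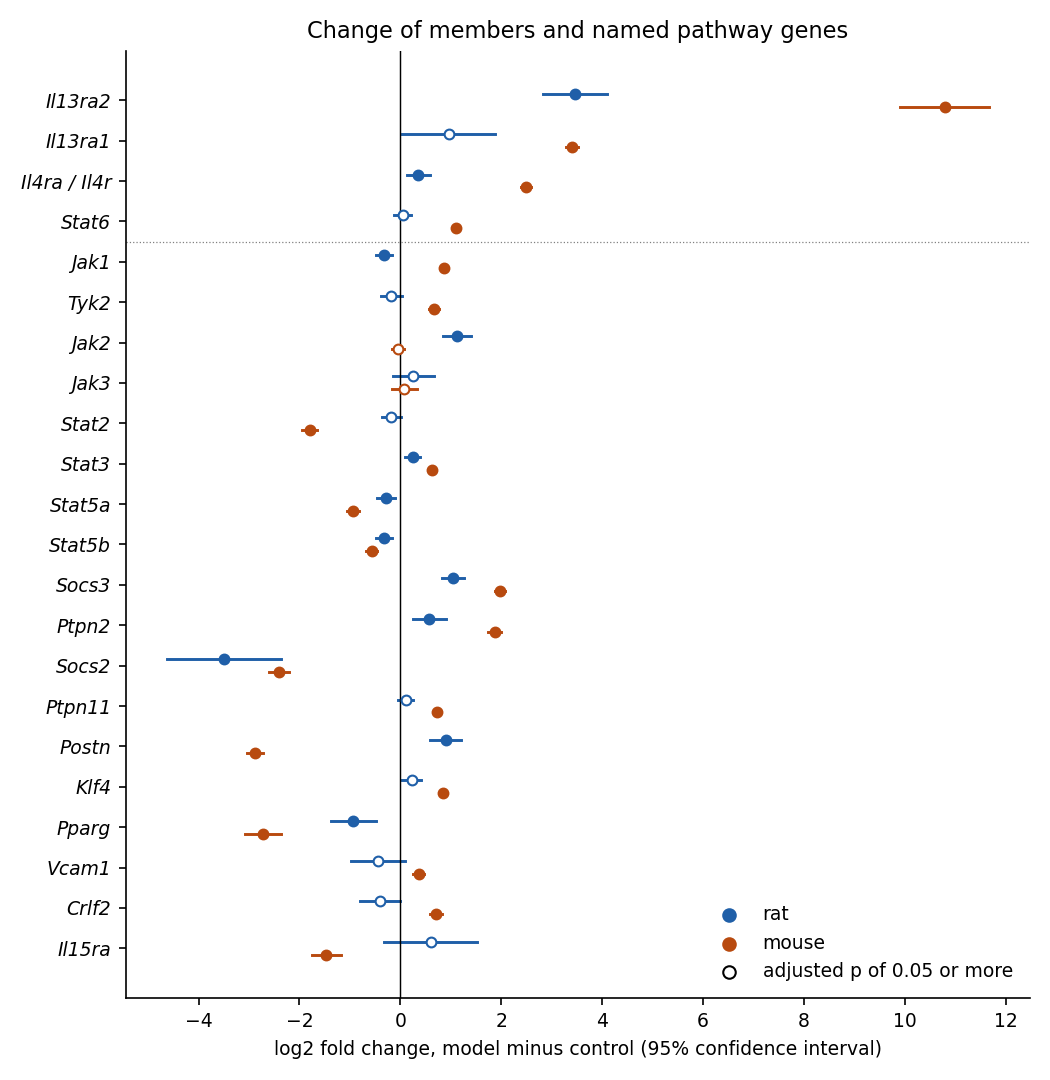
Log2 fold change, model minus control, with its 95% confidence interval for the 4 genes (above the dotted line) and the named genes of the pathway lists, in the rat (blue) and the mouse (orange), with open points where the adjusted p was 0.05 or more. The mouse points of Il13ra2, Il13ra1, Il4ra and Stat6, at 10.79, 3.41, 2.50 and 1.10, all lie to the right of the rat points.

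FPKM divides by length, so it allows genes to be ranked within a group. In the RC group Stat6 was highest (mean 22.6 ± 1.47 SD, n = 3), then Il4r (5.3 ± 0.492), Il13ra1 (0.413 ± 0.135) and Il13ra2 (0.269 ± 0.0631). The ranges of Il13ra1 and Il13ra2 overlapped there, and neighbours in the other places did not. In the RM group the order was Stat6 (23.6 ± 0.879), Il4r (6.86 ± 0.553), Il13ra2 (3.04 ± 0.802) and Il13ra1 (0.815 ± 0.513), with Il13ra2 above Il13ra1 in every RM library, as it already was in RC3. In the MC group it was Stat6 (27.7 ± 1.14), Il4ra (6.02 ± 0.35), Il13ra1 (4.1 ± 0.215) and Il13ra2 (0.0853 ± 0.0413). In the MM group Il13ra2 came first (128 ± 5.55), ahead of Stat6 (49.0 ± 1.81), Il13ra1 (36.1 ± 0.529) and Il4ra (28.0 ± 1.0). Neighbours in the RM, MC and MM orders did not overlap. By mean FPKM, mouse Il13ra2 went from rank 18415 in the MC group to rank 274 in the MM group among 27392 genes with any count, and rat Il13ra2 from rank 13119 to rank 9663 among 18480.

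Within a library the ratio of Il13ra2 to Il13ra1 compares, in RNA only, the high-affinity chain with the signalling IL-13 chain. In the mouse it was 0.0191, 0.0329 and 0.0112 in MC1, MC2 and MC3 and 3.56, 3.75 and 3.34 in MM1, MM2 and MM3. Every MC library held more Il13ra1 per length and every MM library more Il13ra2. In the rat it was 0.544, 0.52 and 1.03 in RC1, RC2 and RC3 and 7.04, 6.33 and 1.53 in RM1, RM2 and RM3. The rat groups did not overlap, although RC3 and RM3 came close. The difference of mean log2 ratios was 7.53 in the mouse and 2.63 in the rat, each with p = 0.1 in a two-sided exact permutation test (n = 3 per group), the smallest p that 3 against 3 can give.

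The ratio of Il13ra1 to Il4ra compares the transcripts of both chains of the type II receptor. In the mouse it was 0.691, 0.679 and 0.678 in the MC group and 1.33, 1.27 and 1.27 in the MM group, so Il13ra1 passed Il4ra in every MM library. The mean log2 ratio differed by 0.92 (exact permutation p = 0.1, n = 3 per group). In the rat the ratio to Il4r was 0.118, 0.0702 and 0.052 in the RC group against 0.085, 0.0697 and 0.199 in the RM group. The rat groups overlapped, with a difference of 0.49 (exact permutation p = 0.6, n = 3 per group) that was 0.029 without RM3. Over the 4 ratio tests the Benjamini-Hochberg adjusted p was 0.133 for the 3 at the smallest value and 0.6 for this 1.

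**Figure D4:**
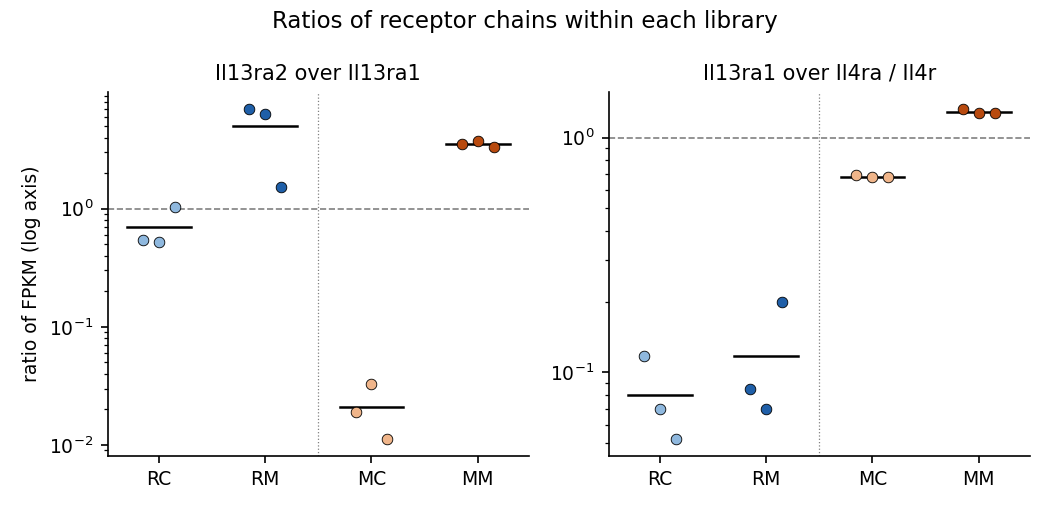
Ratio of FPKM (log axis) of Il13ra2 to Il13ra1 (left) and of Il13ra1 to Il4ra or Il4r (right) in each library, with a line at the group mean and a dashed line at equal levels. The MM libraries lie at 3.34 to 3.75 on the left and at 1.27 to 1.33 on the right, above the dashed line in both panels.

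Taking the summed FPKM of the 3 receptor chains as the whole, Il4ra made up 58.9% ± 0.321 (SD, n = 3) of it in the MC group, Il13ra1 40.2% ± 0.3 and Il13ra2 0.846% ± 0.434. In the MM group Il13ra2 made up 66.6% ± 1.35, Il13ra1 18.8% ± 0.7 and Il4ra 14.6% ± 0.693. The sum itself was 9.9, 9.9 and 10.8 FPKM in MC1, MC2 and MC3 and 190, 198 and 188 FPKM in MM1, MM2 and MM3. In the rat, Il4r had the largest share in both groups, with 88.5% ± 3.38 in the RC group against 64.0% ± 4.02 in the RM group. The share of rat Il13ra2 was 5.42%, 3.3% and 4.82% in RC1, RC2 and RC3 and 35.6%, 29.2% and 20.3% in RM1, RM2 and RM3. A share can fall while the level of the gene rises, as for mouse Il4ra.

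**Figure D5:**
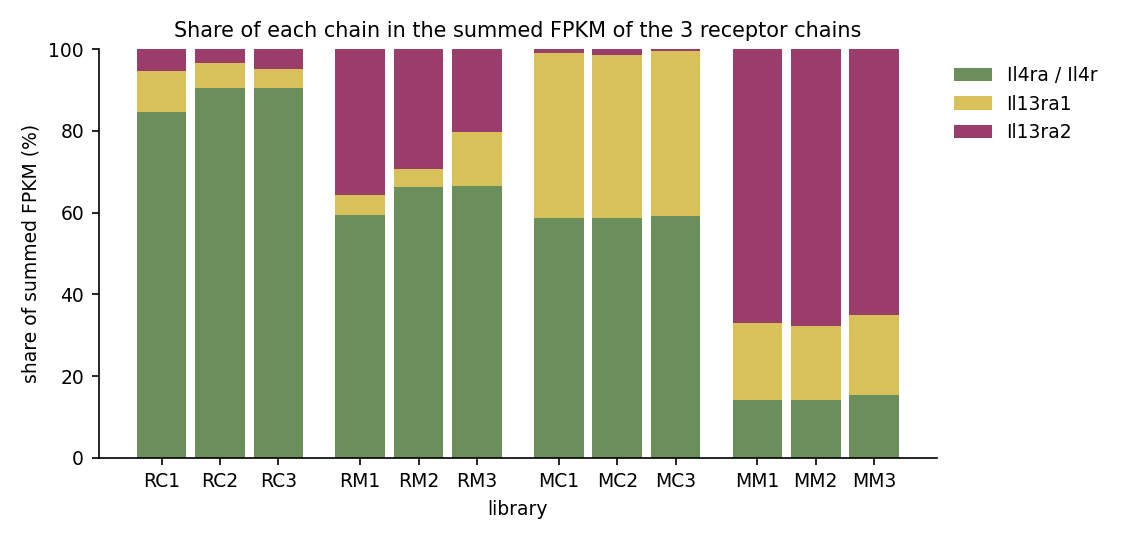
Share (%) of each receptor chain in the summed FPKM of Il4ra or Il4r, Il13ra1 and Il13ra2 in each of the 12 libraries. Il13ra2 takes 65.1% to 67.7% in the MM libraries and 0.451% to 1.31% in the MC libraries, and 20.3% to 35.6% in the RM libraries.

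The mouse genes were placed on GRCm38 with GENCODE M21, whose gene identifiers covered 28595 of the 28603 mouse rows. Il13ra1 (ENSMUSG00000017057) lies at chrX:36112110-36171259 on the plus strand and Il13ra2 (ENSMUSG00000031289) at chrX:147383476-147429192 on the minus strand. Il4ra (ENSMUSG00000030748) lies at chr7:125552120-125579474 and Stat6 (ENSMUSG00000002147) at chr10:127642986-127660957, both on the plus strand. The proteins differ in size, with coding sequences of 383 codons for Il13ra2, 424 for Il13ra1, 810 for Il4ra and 837 for Stat6. Counts were made per gene, so transcripts for membrane and soluble forms of a receptor were not separated.

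The nearest protein-coding genes did not share one pattern. Il4ra lies between Nsmce1, which fell by 0.52 on the log2 scale (SE 0.08, edgeR adjusted p = 8.93e-08), and the cytokine receptor gene Il21r, which had 1 count over the MC libraries and 0 over the MM libraries. On either side of Il13ra1, Dock11 rose with a log2 fold change of 0.99 (SE 0.06, adjusted p = 1.22e-22), while Zcchc12 had 25 counts over the MC and 2 over the MM libraries and was not tested. Beside Il13ra2, Htr2c had 3 and 1 counts over the groups, and no row of the symbol Vmn1r239-ps was found on the other side. Next to Stat6, the endocytic receptor gene Lrp1 rose with a log2 fold change of 1.09 (SE 0.02, adjusted p = 2.77e-48) and Nab2 had 0.041 (SE 0.05, adjusted p = 0.488). Stat6 and Nab2 overlap by 40 bases of exon on opposite strands, and Il4ra overlaps 571 exonic bases of the antisense gene Gm44876, which had 0 counts over the MC and 2 over the MM libraries. Whether the counting used strand is not stated, so reads from these overlaps cannot be told apart.

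Upstream sequences were available for rat genes from RefSeq (GRCr8, 250 bases before to 50 after the start), and 3 of the 4 genes matched, without Il13ra2. They are shown for Il4r, which rose in the rat, and for Il13ra1, its partner in the type II receptor. Motifs were searched on both strands: TTCNNNNGAA, the spacing favoured by STAT6, TTCNNNGAA for other STAT proteins, GGG followed after any 2 bases by TTTCC for NF-κB, TGANTCA for AP-1, TTGCNNAA for C/EBP and GGGCGG for the GC box. Capitals mark every match.
Il4r, chr1:189545525-189545824, plus strand: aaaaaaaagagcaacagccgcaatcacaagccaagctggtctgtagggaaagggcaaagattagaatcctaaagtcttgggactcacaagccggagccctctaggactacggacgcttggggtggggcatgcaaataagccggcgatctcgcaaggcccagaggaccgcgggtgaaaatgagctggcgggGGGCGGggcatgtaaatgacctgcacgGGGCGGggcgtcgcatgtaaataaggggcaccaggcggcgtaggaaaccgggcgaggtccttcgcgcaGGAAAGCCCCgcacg
Il13ra1, chrX:120214355-120214654, plus strand: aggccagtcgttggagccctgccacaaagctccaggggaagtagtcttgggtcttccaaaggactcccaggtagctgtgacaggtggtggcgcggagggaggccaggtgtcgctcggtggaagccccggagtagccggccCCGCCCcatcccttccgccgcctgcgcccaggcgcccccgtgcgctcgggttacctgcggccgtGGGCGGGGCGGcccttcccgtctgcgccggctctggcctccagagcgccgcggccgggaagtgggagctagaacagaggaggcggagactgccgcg
Il4r held 2 GC boxes and 1 match to the NF-κB letters, from 35 to 44 bases after the start. Il13ra1 held 3 GC boxes, of which a pair share a base, and the Stat6 window had no match to these motifs. Of all 33469 rat windows, 1.53% held the NF-κB letters, 33.1% a GC box and 7.28% the STAT6 letters, which were in none of the 3 windows here. A match describes letters only and does not show that a factor binds.

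The type I receptor chain and the kinases were the next step along the pathway. Il2rg had 1, 0 and 3 counts in RC1, RC2 and RC3 and 2, 10 and 2 in RM1, RM2 and RM3, and at most 7 counts in any mouse library, so it was too low to test. Of the 4 JAK genes, Jak1 and Tyk2 rose in the mouse, where Jak2 was lower only with library size alone or limma. In the rat Jak2 rose and Jak1 fell. Beside these stand 37.4% of all mouse genes tested that were higher and 37.7% lower, and 18.3% and 16.8% in the rat. Jak1, the kinase bound to the Il4ra chain, was at 33.1, 33.2 and 33.7 FPKM in the MC group and 49.6, 49.2 and 50.6 in the MM group (log2 fold change 0.86, SE 0.03, edgeR adjusted p = 6.45e-35). In the rat it went from 98.6, 86.3 and 86.9 FPKM to 73.0, 75.2 and 72.4 FPKM (-0.32, SE 0.07, adjusted p = 0.00599), and the species differed by 1.18 (SE 0.07, adjusted p = 4.66e-10).

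Jak2 binds the Il13ra1 chain, as does Tyk2, and rose in the rat. Rat Jak2 had 1193, 778 and 819 counts in the RC libraries and 1685, 2501 and 2020 counts in the RM libraries, which did not overlap (log2 fold change 1.12, SE 0.12, edgeR adjusted p = 6.79e-05). Mouse Jak2 had a log2 fold change of -0.051 (adjusted p = 0.446), but with library size alone it was -0.33 and passed the test. The difference between the species was -1.17 (SE 0.14, adjusted p = 2.03e-06). Mouse Tyk2 rose with a log2 fold change of 0.67 (SE 0.05, adjusted p = 4.41e-18), and rat Tyk2 had -0.17 (adjusted p = 0.17; -0.25 and adjusted p = 0.0266 without RC1), a difference between the species of 0.84 (adjusted p = 2.31e-06). Jak3, the partner of the common gamma chain, did not pass in either species. Its value was 0.26 in the rat (edgeR adjusted p = 0.306), or 0.087 to 0.47 when each library was left out. Mouse Jak3 had 0.075 (edgeR adjusted p = 0.592, -0.20 with library size alone and -0.071 without MM3).

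Of 5 other STAT genes listed, 4 were tested in each species, and Stat3 was the only 1 of these to rise in the mouse, as Stat6 did. Stat3, the main STAT of the IL-6 family, rose in the mouse (0.64, SE 0.03, edgeR adjusted p = 9.48e-28) and in the rat (0.25, SE 0.07, adjusted p = 0.0144). The rat call for Stat3 was lost without RC3, RM1, RM2 or RM3 (adjusted p = 0.0545, 0.0555, 0.0567 and 0.0518). The other 3 tested fell in the mouse, where 37.4% of all genes tested were higher and 37.7% lower (18.3% and 16.8% in the rat). Stat2, which acts in the interferon response, had a log2 fold change of -1.79 there (SE 0.07, adjusted p = 8.95e-33), against -0.18 in the rat (adjusted p = 0.119, or -0.22 and adjusted p = 0.0417 without RC1), a difference of -1.61 (adjusted p = 6.05e-08). Stat5a fell in the mouse (-0.94, SE 0.06, adjusted p = 4.58e-23) and in the rat (-0.28, SE 0.08, adjusted p = 0.0248), where the call was lost without RC2 (-0.22), RM1 (-0.28) or RM2 (-0.24) and with limma at a pseudocount of 1 (-0.24) or 0.1 (-0.26). Stat5b also fell in the mouse (-0.57, SE 0.05, adjusted p = 5.4e-15) and in the rat (-0.32, SE 0.07, adjusted p = 0.00607). The Stat5b difference of -0.24 (adjusted p = 0.0179) was not called without MM1 (-0.22, adjusted p = 0.0503) or MM2 (-0.21, adjusted p = 0.0589). The median over the tested genes of this list was -0.75 in the mouse and -0.23 in the rat, beside -0.016 and 0.0052 over all genes.

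Among 13 adapters and regulators of the pathway, 9 rose and 3 fell in the mouse, and 5 rose and 3 fell in the rat. Over all genes tested 37.4% were higher and 37.7% lower in the mouse, and 18.3% and 16.8% in the rat. The median log2 fold change of the list was 0.42 in the mouse and 0.11 in the rat, and with library size alone 6 rose and 3 fell in the mouse with a median of 0.14. Socs3, a feedback inhibitor of JAK signalling, rose in the mouse (1.97, SE 0.05, edgeR adjusted p = 2.17e-42) and in the rat (1.05, SE 0.10, adjusted p = 2.5e-05). The phosphatase gene Ptpn2 rose by 1.87 in the mouse (SE 0.06, adjusted p = 1.68e-37) and by 0.57 in the rat (SE 0.15, adjusted p = 0.0124, or 0.0504 without RM1). The phosphatase gene Ptpn11 rose in the mouse (0.72, SE 0.03, adjusted p = 2.59e-30) and had 0.11 in the rat (adjusted p = 0.218), a difference of 0.61 (adjusted p = 7.21e-07). Socs2, an inhibitor of growth hormone signalling, fell in both species. The fall was 2.40 in the mouse (SE 0.10, edgeR adjusted p = 2.06e-33) and 3.50 in the rat (SE 0.51, adjusted p = 0.000186). Rat Socs2 had 39 to 60 counts in the RC and 2 to 9 counts in the RM libraries. It passed the filter on low counts through its RC counts, so its fall was built into the test. The rat count of 3 that fell includes it. Without RM3 rat Socs2 was at -4.54. The Socs2 difference between the species was 1.09 (adjusted p = 0.0227) and 2.13 without RM3, but it was not called with library size alone (0.80), with a replicate block (1.08), without RM1 (0.85), without RM2 (0.68) or with limma at a pseudocount of 0.1 (0.40), and it reversed with limma at a pseudocount of 1 (-0.46).

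Of 20 genes listed as targets of STAT6, 18 had a row in the mouse table and 15 in the rat table, and 9 and 11 could be tested. In the mouse 4 rose and 3 fell, and in the rat 6 rose and 2 fell, beside 37.4% higher and 37.7% lower over all mouse genes and 18.3% and 16.8% over all rat genes. The rat count of 6 includes Clec10a, which was tested only through its RM counts. With library size alone 1 rose and 4 fell in the mouse, and the mouse median turned to -0.24. Cish and Socs1 stand both in this list and among the regulators. The median log2 fold change was 0.044 in the mouse and 0.48 in the rat, and 9 mouse and 3 rat genes had under 10 counts in every library. Postn, a matrix protein induced by IL-13 in airway cells, fell in the mouse (-2.89, SE 0.08, edgeR adjusted p = 1.06e-43) and rose in the rat (0.90, SE 0.14, adjusted p = 0.000571), a difference of -3.79 (adjusted p = 1.6e-11). Pparg, an adipogenic nuclear receptor gene, fell in the mouse (-2.73, SE 0.18, adjusted p = 2.4e-24) and in the rat (-0.93, SE 0.20, adjusted p = 0.00496). Klf4 rose in the mouse (0.84, SE 0.03, adjusted p = 2.38e-32) and had 0.23 in the rat (adjusted p = 0.0591, or 0.00711 without RC1, 0.0468 with library size alone, and 0.0494 or 0.0479 with limma, in a range of 0.00711 to 0.203), a difference of 0.61 (adjusted p = 2.36e-05). The adhesion gene Vcam1 rose in the mouse (0.36, SE 0.05, adjusted p = 1.58e-08), but it was not called with library size alone (0.083) or with limma (0.072 and 0.083), and the rat value was -0.43 (adjusted p = 0.189). The Vcam1 difference was 0.79 (adjusted p = 0.00257), and it was not called with limma.

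Clec10a, named after its values were seen, had 0 counts in every RC library and 18 to 22 counts in the RM libraries, at least 6.58-fold higher against a floor of 3 counts per library. With Clec10a at that bound the rat median of the target list was still 0.48. In the mouse Clec10a had 0 counts in every library.

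Of the other 7 receptors of the common gamma chain and cytokine receptor family, 2 were tested in each species, and 5 mouse and 3 rat genes had under 10 counts in every library. Crlf2, a chain of the thymic stromal lymphopoietin receptor, rose in the mouse (0.71, SE 0.06, edgeR adjusted p = 7.8e-16) and had -0.41 in the rat (adjusted p = 0.105, or -0.54 and adjusted p = 0.0156 without RC1), a difference of 1.10 (adjusted p = 4.45e-05). Il15ra fell in the mouse (-1.46, SE 0.15, adjusted p = 2.41e-14) and had 0.60 in the rat (adjusted p = 0.278), a difference of -2.07 (adjusted p = 0.000173). The rises of Il4ra and Il13ra1 in the mouse were not shared by Il15ra, and the difference between these genes was not tested.

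The genes most like each member were sought by the distance between log2 profiles of CPM over all 12 libraries, centred within each species, among 10913 genes. For Il13ra2 they were Ptgs2 (distance 1.19), Il6 (2.01) and Cxcl2 (2.7), encoding inducible cyclooxygenase, a cytokine and a neutrophil chemokine. Their log2 fold changes were 2.80, 3.95 and 6.89 in the rat and 9.60, 12.51 and 13.11 in the mouse. For Il13ra1 they were Fam184b (1.08), Ppp1r3g (1.15) and Cntnap1 (1.24), and for Il4ra they were Plekha2 (0.29), Mthfd1l (0.341) and Ldha (0.382). For Stat6 they were Pacs1 (0.175), Repin1 (0.21) and Arhgef11 (0.211). With 4 groups of 3 libraries such likeness rests mainly on a pair of group differences.

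The label of the cells was checked against marker genes. Of 10 chondrocyte markers, all were present and all fell in both species, beside 37.7% of all mouse genes tested and 16.8% of rat genes. The mouse count of 10 includes Matn3, with 1384 to 1444 counts in the MC and 8 to 10 in the MM libraries. Matn3 passed the filter on low counts through its controls, so its fall was built into the test. The 10 markers had a median log2 fold change of -3.42 in the mouse and -1.38 in the rat. Their summed FPKM, led by Col2a1, was 2230, 2200 and 2250 in the MC group and 181, 186 and 195 in the MM group, and 4260, 4940 and 4310 in the RC group against 1510, 1570 and 1560 in the RM group. Il4ra (Il4r in the rat) and Il13ra2 in both species, and Il13ra1 and Stat6 in the mouse, thus rose in libraries in which chondrocyte markers fell, and the part of that change in the result was not tested.

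Macrophages carry these receptors in many tissues, so their markers were examined as well. Of all genes tested, 37.4% were higher and 37.7% lower in the mouse, and 18.3% were higher and 16.8% lower in the rat. In the mouse 4 of 9 macrophage markers could be tested and rose, or 3 with library size alone. In the rat 2 of the 5 macrophage markers tested rose and 2 fell. Their summed FPKM was 7.67, 7.38 and 7.41 in the MC and 34.4, 37.1 and 35.1 in the MM group, and 19.9, 23.3 and 21.6 in the RC and 35.6, 32.1 and 34.0 in the RM group, led by Cd14 in the rat and MM libraries and by Cd68 in the MC libraries. The list was uneven in the mouse, with 0 counts of Itgam in every library and at most 2 counts of Ptprc, Adgre1, C1qa or Tyrobp, but 21 to 58 counts of Csf1r, 63 to 221 of Cd68 and 32 to 90 of Lyz2. Named after their values were seen, mouse Csf1r, Cd68 and Lyz2 rose by 0.70, 1.50 and 1.01 on the log2 scale, and Csf1r was the marker not called with library size alone. In the rat Cd68 rose by 0.92, while Csf1r and Lyz2 had -1.20 and -0.87 and were called lower. In the rat Ptprc had 4 to 11 counts and Adgre1 5 to 11. Rat C1qa had 1 to 7 counts in the RC and 8 to 18 in the RM libraries, with groups that overlapped in FPKM. None of these rat genes was tested. Rat Tyrobp was tested and not called (-0.34, edgeR adjusted p = 0.679). Cd14 itself rose by 3.96 in the mouse (SE 0.13, edgeR adjusted p = 1.23e-41) and by 0.86 in the rat (SE 0.09, adjusted p = 4.63e-05).

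Markers of lymphocytes and mast cells were also scarce. In the mouse libraries no tested gene came from the T cell, B cell, or mast cell and basophil lists, and in the rat only Cd4 was tested (0.023, adjusted p = 0.976 in edgeR), with 8 to 25 counts. The mouse T cell list summed to at most 0.114 FPKM in a library, the B cell list to at most 0.432 FPKM and the mast cell list to at most 0.0934 FPKM, and in the rat the T cell list summed to at most 0.597 FPKM and the mast cell list to at most 0.407 FPKM. By mean FPKM over the libraries of a species, the most abundant genes of these lists were Cd4, Cd79a and Hdc in the mouse and Cd4 and Hdc in the rat, whose table had no row for the B cell genes listed. Of the endothelial list 1 mouse gene, Tek, was tested and fell, while Cdh5 had 2 counts over the MC and 29 over the MM libraries and Kdr 17 and 39, without overlap and too low to test. The sum of the list stayed at or under 0.504 FPKM in every mouse library and 0.141 FPKM in every rat library. Among all genes tested, 37.4% rose and 37.7% fell in the mouse, and 18.3% rose and 16.8% fell in the rat. Of 6 fibroblast markers 3 rose and 3 fell in the mouse, or 1 and 4 with library size alone. In the rat 1 fibroblast marker rose and 2 fell. Their sum, led by Col1a1, was 2290 to 2320 FPKM in the MC and 1060 to 1070 FPKM in the MM group, and 3810 to 4310 FPKM in the RC and 2840 to 2970 FPKM in the RM group. All 3 osteoblast markers fell in the mouse, and 1 of the 2 tested, Sp7, fell in the rat. Mouse Sp7, Ibsp and Bglap had 2 to 11, 0 to 3 and 2 to 6 counts in the MM libraries. Rat Sp7 had 3 to 8 counts in the RM libraries. These genes passed the filter on low counts through their controls, so their falls were built into the test.

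Il13ra1 and Il13ra2 are X-linked in the mouse, so the sex chromosome genes were examined. Xist was present in all 6 mouse libraries, with 10591 to 11875 counts in the MC group and 7512 to 9111 counts in the MM group, and Ddx3y in all of them with 802 to 948 counts. Each mouse library therefore held RNA from the cells of females and of males, and so came from a mix of animals. Mouse Xist fell by 0.23 on the log2 scale (SE 0.03, edgeR adjusted p = 1.62e-10), and the Y-linked genes had values from -0.34 (Kdm5d) to 0.35 (Uty). Whether a shift between cells of females and males plays a part in the changes of Il13ra1 and Il13ra2 was not tested. Of these 5 mouse genes 2 rose and 3 fell, with a median of -0.23, beside 37.4% higher and 37.7% lower over all mouse genes tested. With library size alone none of the 5 rose and 4 fell, with a median of -0.51. In the rat, Eif2s3y had 552 to 1036 counts and none of the 3 Y-linked genes tested passed.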

How the data were processed

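Total RNA was measured in 12 chondrocyte libraries, 3 for each group (untreated RC and MC, IL-1β-treated RM and MM). The deposited tables give counts per gene and FPKM made by the authors from those counts, gene length and column total. The submitters' notes name HISAT2, HTSeq 0.11.2, GRCm38 and Rnor_6.0, and the strand setting is not given in the sources used here. Genes were filtered with filterByExpr, scaled by TMM and tested with quasi-likelihood fits in edgeR 4.0.16 (R 4.3.3), with Benjamini-Hochberg adjustment within each comparison. The difference between the species was a contrast over genes shared by symbol, with 1 estimate of spread per gene for both species. Rat Il4r was paired with mouse Il4ra after the tables were seen, since RefSeq lists Il4ra as a synonym. Ratios used exact permutation tests (SciPy 1.17.1). Alternatives were DESeq2 1.42.0, library size alone, no filter, limma 3.58.1 on log2 FPKM with a pseudocount of 1 or 0.1, a replicate block and leaving out each library. The code was tested on simulated data. Comparisons and alternatives were chosen before the data were examined, but the members and lists were chosen with earlier results of these data known. Named genes were the members, ligands, Il2rg, the JAK genes and, in each other pathway list, the 4 genes whose adjusted p was lowest in 1 of the species. List counts with library size alone were added after the data were seen. Of the listed genes, 2 are not reported here and were left out of the counts and medians of their lists.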

Additional observations from a re-analysis of the deposited data

Results flagged for a closer look

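The log2 fold change differed between the species, by the test of the mouse change minus the rat change in edgeR, for the 4 members and 17 other named genes. Over the 10913 genes tested in both species, 31.4% were called above 0 and 32.3% below 0. Most pathway genes were named for a low adjusted p in 1 species, so the count was partly set by that choice. Among the members the difference was 2.46 for Il13ra1, 2.13 for Il4ra and 1.05 for Stat6. It was 7.34 for Il13ra2, which was tested in the mouse only through its MM counts and so had to differ.

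Among the kinases the difference was 1.18 for Jak1, 0.844 for Tyk2 and -1.17 for Jak2. Among the other STAT genes it was 0.388 for Stat3, -0.244 for Stat5b, -0.662 for Stat5a and -1.61 for Stat2. Among the regulators it was 1.3 for Ptpn2, 1.09 for Socs2, 0.924 for Socs3 and 0.609 for Ptpn11. Among the targets of STAT6 it was 0.785 for Vcam1, 0.609 for Klf4, -1.79 for Pparg and -3.79 for Postn. Among the other receptors it was 1.1 for Crlf2 and -2.07 for Il15ra.

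The differences of Stat3, Stat5b, Socs2 and Vcam1 did not pass under every alternative. Stat3 was at 0.093 with library size alone and at 0.085 and 0.091 with limma, Stat5b at -0.22 without MM1 and -0.21 without MM2, and Vcam1 at 0.25 and 0.47 with limma. Socs2 reversed and passed the test with limma at a pseudocount of 1 (-0.46, adjusted p = 0.00205), and did not pass at 0.1 (0.40), with library size alone (0.80), with a replicate block (1.08), without RM1 (0.85) or without RM2 (0.68). Its adjusted p under those 5 ran from 0.0508 to 0.314. Without RM3 the Socs2 difference was 2.13 and passed.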

How the results depend on the processing

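Of 280 alternative values of the members, the ratios and the counts of genes called, 266 kept their direction and their side of the threshold or, for counts, stayed within 1.5 times. For the ratios only the direction is informative, since 3 against 3 cannot pass. The tolerance for counts admits large shifts: with library size alone the mouse calls went from 5521 higher and 5564 lower to 3697 and 8077, and without 1 library the rat genes called higher ran from 1735 to 3243. Rat Il13ra1 passed with DESeq2 (0.96) and with no filter (0.96), and ran from 0.31 to 1.23 when each library was left out. On leaving out each library, rat Il4r ran from 0.27 to 0.42 and rat Stat6 from -0.022, a reversal, to 0.084.

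The mouse genes called higher numbered 3639 and 3635 with limma at a pseudocount of 1 and 0.1. For the difference between species, 2190 were higher and 5398 lower with library size alone, 2215 and 5326 with limma at a pseudocount of 1, and 2168 and 5351 at 0.1. Mouse Jak3 reversed to -0.20 with library size alone, to -0.13 and -0.20 with limma at a pseudocount of 1 and 0.1, and to -0.071 without MM3, in a range up to 0.22. The Socs2 difference reversed to -0.46 with limma at a pseudocount of 1 and passed the test (adjusted p = 0.00205). The cause was not tested. Of 768 values of other named genes, 728 kept direction and call, 25 lost and 10 gained a call.

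With a replicate block, rat Il13ra1 was 0.84 and rat Il4r 0.36, so that Il13ra1 missed the study's size criterion, and of the calls by adjusted p for named genes the Socs2 difference (1.08, adjusted p = 0.0508) was lost. Deviations of libraries with the same number correlated at 0.024, -0.098 and 0.085 in the rat and 0.0012, 0.015 and 0.0048 in the mouse, across genes, which are not independent replicates. A pseudocount of 1 or 0.1 lowers by construction the fold change of a gene near 0 FPKM. With limma, the log2 fold change of Il13ra2 was 6.89 and 9.46 in the mouse and 1.65 and 3.07 in the rat. Depth limits the precision for mouse Il13ra2 in the MC group, at 2 to 5 counts per library.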
